A study of Mus musculus with 14 samples.

Results

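Cholesterol genes were followed through both data sets of this study of morphine and glia: 32 genes of cholesterol synthesis, sterol sensing, transport and export. They were chosen by their symbols, with earlier results of these data known. All 32 were found among the 33006 gene symbols of the sorted-oligodendrocyte table and among the 20871 symbols shared by the annotations of the nucleus accumbens tables. The list holds 8 genes of the mevalonate steps, 11 of the sterol steps, 5 of sterol sensing, 3 of uptake and intracellular transport and 5 of export. All animals were male C57BL/6 mice that had received an intraperitoneal injection of saline (mock) or of morphine sulfate. The dose and the time of collection are not given in the sources used here. The accumbens, a striatal region made up mostly of medium spiny neurons, was dissociated with papain and profiled by Drop-seq in 4 mock and 4 morphine pools of 2 mice each. Drop-seq joins each cell with a barcoded bead in a droplet and counts transcripts as UMIs, molecular tags that mark 1 captured transcript each. Pool 1 of each group came from mice of 42 and 45 days, pool 2 from mice of 37 and 42 days, pool 3 from mice of 78 and 82 days and pool 4 from mice of 78 days. Oligodendrocytes, the myelin-forming cells, were purified by immunostaining and FACS from whole brains of mice of 70 days, with 3 mock and 3 morphine libraries, and their amplified total RNA was sequenced in bulk. The stain is not named in the sources used here, and each library was taken as 1 mouse.

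Cells make cholesterol from acetyl-CoA. The mevalonate steps build isoprenoid units and farnesyl diphosphate, squalene synthase (Fdft1) and squalene epoxidase (Sqle) commit them to sterols, and lanosterol is then trimmed and rearranged into cholesterol. When sterol is low in the endoplasmic reticulum membrane, SCAP escorts the SREBP precursors to the Golgi, where they are cleaved into transcription factors for these enzymes, and INSIG proteins hold SCAP back when sterol is plentiful. The liver X receptors, encoded by Nr1h2 and Nr1h3, respond to oxysterols and drive the exporters ABCA1 and ABCG1. The adult brain makes its own cholesterol because lipoproteins of the blood hardly cross the blood-brain barrier. Oligodendrocytes need it in bulk for myelin, and astrocytes ship it to neurons on particles that carry apolipoprotein E (Apoe). NPC1 and NPC2 move cholesterol that has been taken up out of lysosomes.

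Of 36000 deposited barcodes, 33225 passed (at least 300 genes and at most 20% mitochondrial UMIs), 2813 to 5846 per pool. Cells were assigned to a class from marker genes that include none of the 32 genes, so each class is one of cells that resemble the named type. The markers placed 27769 cells, and 5456 (16.4%) stayed unassigned. Pools shared at most 8 cell barcodes. The median mitochondrial share per cell was 3.01% to 4.57% in the mock and 4.82% to 7.01% in the morphine pools, with no overlap. Its part in the accumbens results was not tested. Between 14989118 and 23456702 reads fell in genes per sorted library. Levels are given as CPM, reads or UMIs scaled to a total of 1000000 for the library, or for the class within a pool, so that a sorted CPM and an accumbens CPM are not on a common scale. The 13 markers of mature oligodendrocytes summed to 66230 to 70596 CPM over the 6 libraries, and the 13 astrocyte markers to 206 to 289 CPM.

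In sorted oligodendrocytes, 5 of the 32 genes differed between morphine and mock, and only 1 of them was an enzyme of synthesis. The exporter Abca1, the sterol sensor Insig1 and the sterol dehydrogenase Nsdhl rose, while the exporter Abcg1 and the transcription factor gene Srebf1 fell, each by less than 1.5-fold. All 32 genes were tested, with 3 called higher where 8.09% of the 15759 genes tested were, and 2 called lower where 6.67% were (edgeR's quasi-likelihood test with Benjamini-Hochberg adjustment, adjusted p under 0.05). These shares are close to those of all genes, and the median log2 difference of the 32 was -0.03 against -0.02 over all genes. In bulk RNA, fewer cells of a type and less RNA per cell cannot be told apart.

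Among the exporters, Abca1 encodes the pump that loads cholesterol and phospholipid onto apolipoproteins. The gene lies at chr4:53030787-53159895 on the minus strand (GENCODE vM21, mm10). The 3 mock libraries gave 82.2, 90.1 and 85.4 CPM and the 3 morphine libraries 114, 105 and 105 CPM. Every morphine library was above every mock library, with a log2 difference of 0.36 (SE 0.06, adjusted p = 0.000292). Abcg1 encodes the transporter that passes cholesterol on to lipid-bearing particles and lies at chr17:31057675-31117988 on the plus strand. It moved the other way, from 93.4, 98.1 and 98.7 CPM in mock to 76.7, 77.4 and 68.5 CPM in morphine libraries. The groups did not overlap, and the log2 difference was -0.36 (SE 0.07, adjusted p = 0.000447). Both exporters are textbook targets of the liver X receptors, and here their differences had opposite signs. Of the receptors, Nr1h2 gave a log2 difference of 0.03 (SE 0.08) and Nr1h3 of -0.48 (SE 0.48), neither called. Nr1h3 was the lowest of the 32 genes per length, and its level before that correction was 0.38 to 1.41 CPM over the 6 libraries. Apoe, the brain's main apolipoprotein, averaged 103 ± 4.96 CPM over the mock and 99.7 ± 5.38 CPM over the morphine libraries (SD, n = 3 each), a difference smaller than the spread.

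Among the sensors, Insig1 encodes the endoplasmic reticulum protein that retains SCAP and lies at chr5:28071363-28078662 on the plus strand. The mock libraries gave 69.3, 70.3 and 68.6 CPM, the morphine libraries 80.5, 85.1 and 77.4 CPM. All morphine values were above all mock values, with a log2 difference of 0.25 (SE 0.06, adjusted p = 0.00862). Srebf1 encodes SREBP-1, the family member best known for fatty acid synthesis, at chr11:60199089-60222581 on the minus strand. Mock libraries stood at 51.4, 56.5 and 55.0 CPM, and the level fell to 42.9, 44.2 and 45.2 CPM with morphine. The groups did not overlap, and the log2 difference was -0.27 (SE 0.07, adjusted p = 0.0062). The locus overlaps Rai1 on the other strand and a microRNA gene on its own strand, and since strand use in counting is not stated, reads of Rai1 cannot be told apart from its own there. Srebf2, which encodes the SREBP that drives the cholesterol enzymes, gave -0.12 (SE 0.06), Scap -0.11 (SE 0.06) and Insig2 0.11 (SE 0.09), none of them called.

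Of the 19 enzymes of synthesis, only Nsdhl was called by this test. It encodes the dehydrogenase that helps strip the methyl groups at carbon 4 of the sterol ring and lies at chrX:72918557-72958514 on the plus strand. Mock libraries gave 34.0, 31.0 and 35.7 CPM and morphine libraries 37.4, 39.2 and 42.6 CPM. The groups did not overlap, though the gap between them was narrow, and the log2 difference was 0.27 (SE 0.08, adjusted p = 0.02). The next enzymes in order of p did not pass. Sqle, the epoxidase that starts the sterol branch, ranged over 98.9 to 113 CPM without and 87.8 to 98.9 CPM with morphine, with a log2 difference of -0.16 (SE 0.07, adjusted p = 0.115). Cyp51, the lanosterol demethylase, gave -0.18 (SE 0.07, adjusted p = 0.129). Hmgcs1, the cytosolic HMG-CoA synthase, differed by -0.01 (SE 0.07), with mock libraries from 437 to 558 CPM and morphine libraries from 480.1 to 521 CPM. The transport genes gave log2 differences of 0.01 (SE 0.05) for Npc1, 0.01 (SE 0.06) for Npc2 and 0.06 (SE 0.11) for Stard4. For the lysosomal carriers these differences were smaller than their standard errors.

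**Figure D1:**
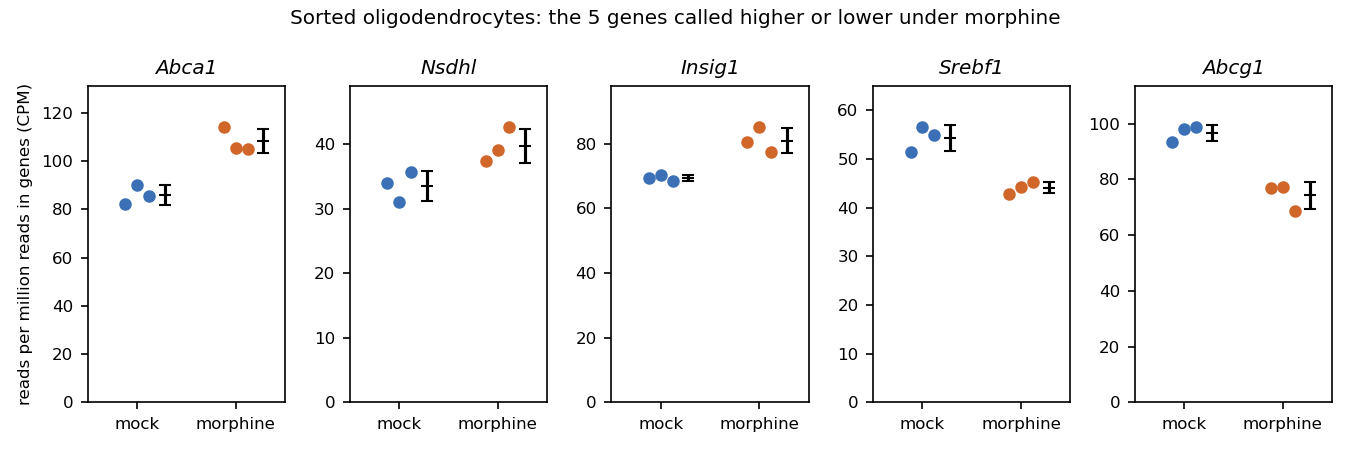
Level in CPM (vertical axis) of the 5 cholesterol genes called in sorted oligodendrocytes, by library; points are libraries, and bars give the mean and SD of 3 mock and 3 morphine libraries. Abca1, Nsdhl and Insig1 sit higher and Srebf1 and Abcg1 lower after morphine, without overlap, and the steps are small against the levels.

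In CPM per kilobase of exon, the mock libraries of sorted cells held Hmgcs1 most of all the 32 genes, at 110.1, followed by Apoe at 48.0, Cyp51 at 41.7 and Npc1 at 38.0. Npc2 (26.9), Srebf2 (24.8), Msmo1 (24.6) and Insig1 (22.4) came next on this scale. Abcg1 was at 13.3, Nsdhl at 11.8, Srebf1 at 9.64 and Abca1 at 8.29. These libraries also carry astrocyte markers (206 to 289 CPM in sum). In accumbens astrocytes Apoe averaged 20594 CPM and the same 13 markers made up a median of 1.89% of a cell's UMIs, on another scale. The part of astrocyte RNA in the Apoe of the sorted cells was not tested. The genes called between morphine and mock were thus mostly of middle rank within the list. The lowest were Idi1, the isopentenyl diphosphate isomerase, at 0.863 and Nr1h3 at 0.437.

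The summed levels of some marker sets differed between the groups in these libraries. The 12 endothelial markers summed to between 75.7 and 79.4 CPM in the mock libraries and between 46.4 and 63.2 CPM in the morphine libraries, the 7 excitatory neuron markers to 9.41 to 14.3 and 8.25 to 8.40 CPM, and the 7 oligodendrocyte precursor markers that were found to 27.5 to 28.6 and 31.3 to 35.2 CPM. The 13 markers of mature oligodendrocytes themselves summed to between 66230 and 69322 CPM without morphine and between 69591 and 70596 CPM with it. These 4 sets did not overlap between the groups. All other marker sets did, such as those of astrocytes (206 to 263 and 257 to 289 CPM) and microglia (74.5 to 87.8 and 75.9 to 78.2 CPM). The part of the 4 sets in the changes of Abca1, Abcg1, Insig1, Srebf1 and Nsdhl was not tested. Without morphine library 2, Abca1 and Abcg1 were called (1 gene higher and 1 lower), while Insig1 (0.22, adjusted p = 0.0815), Srebf1 (-0.26, adjusted p = 0.0513) and Nsdhl (0.29, adjusted p = 0.0569) were not. Without morphine library 3, Nsdhl was not called either (adjusted p = 0.146), and without mock library 2 the genes called lower numbered 5. In the authors' deposited table all 5 genes had an adjusted p under 0.05, with log2 fold changes of 0.39 for Abca1, 0.27 for Insig1, 0.29 for Nsdhl, -0.32 for Abcg1 and -0.24 for Srebf1.

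A further 24 genes of the pathway had been listed, also with earlier results of these data known. Of these, 23 were tested and Ch25h was too low. The test called 3 of them higher and 3 lower, where 8.09% and 6.67% of the 15759 genes tested were. Erlin2, whose product helps degrade HMG-CoA reductase in the endoplasmic reticulum, went from 79.5, 72.3 and 74.6 CPM in mock to 154, 170.0 and 157 CPM in morphine libraries, a log2 difference of 1.11 (SE 0.06, adjusted p = 3.1e-11). Its difference was more than 3 times that of any of the 5 genes above. Lbr, a sterol reductase that also anchors chromatin at the nuclear membrane, rose by 0.60 (adjusted p = 9.99e-07) from 38.3 ± 0.471 to 56.9 ± 1.28 CPM, and Abca2, a lipid transporter abundant in oligodendrocytes, rose by 0.30 (adjusted p = 6.41e-05) from 1510.2 ± 25.4 to 1829 ± 81.7 CPM. Lbr overlaps Dnah14 on the other strand. The lipoprotein receptor gene Vldlr fell by 0.38 (adjusted p = 2.99e-05) from 251 ± 12.8 to 189 ± 5.88 CPM. The late endosomal sterol binder Stard3 fell by 0.29 (adjusted p = 0.00545) from 54.2 ± 2.90 to 43.6 ± 0.209 CPM, and Abca7 by 0.31 (adjusted p = 0.0424) from 19.9 ± 0.605 to 15.7 ± 1.77 CPM. The call of Stard3 was lost without mock library 1 (adjusted p = 0.0802) or morphine library 3 (adjusted p = 0.0502), and that of Abca7 without any single library other than morphine library 1 (adjusted p of 0.0686 to 0.30).

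Insig1, Nsdhl and Abca1 rose together in these cells, and Hmgcs1 had the highest level per length in the sorted cells. Msmo1 differed most between astrocytes and medium spiny neurons among the enzymes tested. For these reasons the promoter windows of these 5 genes are shown. They run from 250 bases before to 50 bases after the start of the gene, 5′ to 3′ along the gene's strand, from RefSeq on GRCm38.p6, in which 26 of the 32 genes were matched. Capitals mark CCAAT, the box of nuclear factor Y, and the core of the sterol regulatory element, CACNCCAC, each searched on both strands, so that they can also appear as ATTGG and as GTGGNGTG; the 2 motifs do not overlap in these windows. The windows are chr5:28071162-28071461 on the plus strand for Insig1, chrX:72918271-72918570 on the plus strand for Nsdhl, chr4:53159846-53160145 on the minus strand for Abca1, chr13:119690101-119690400 on the plus strand for Hmgcs1 and chr8:64733529-64733828 on the minus strand for Msmo1.
Insig1: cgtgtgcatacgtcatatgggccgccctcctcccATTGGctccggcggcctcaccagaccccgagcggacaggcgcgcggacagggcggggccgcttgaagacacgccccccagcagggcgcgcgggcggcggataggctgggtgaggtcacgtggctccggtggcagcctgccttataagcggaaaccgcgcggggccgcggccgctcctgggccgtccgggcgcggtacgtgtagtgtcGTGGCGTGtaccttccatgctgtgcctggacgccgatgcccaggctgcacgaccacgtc
Nsdhl: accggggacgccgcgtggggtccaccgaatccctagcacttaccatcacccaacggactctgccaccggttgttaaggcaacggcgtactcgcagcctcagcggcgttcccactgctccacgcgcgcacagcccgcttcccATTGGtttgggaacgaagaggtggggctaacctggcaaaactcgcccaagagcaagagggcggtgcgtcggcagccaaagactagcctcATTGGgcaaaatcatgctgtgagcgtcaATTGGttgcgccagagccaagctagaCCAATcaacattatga
Abca1: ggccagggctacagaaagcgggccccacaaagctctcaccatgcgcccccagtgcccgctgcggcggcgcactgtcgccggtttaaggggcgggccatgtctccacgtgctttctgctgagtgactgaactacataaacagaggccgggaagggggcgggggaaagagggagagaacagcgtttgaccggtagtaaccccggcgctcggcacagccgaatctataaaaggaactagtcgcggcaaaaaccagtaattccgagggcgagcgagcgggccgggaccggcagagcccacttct
Hmgcs1: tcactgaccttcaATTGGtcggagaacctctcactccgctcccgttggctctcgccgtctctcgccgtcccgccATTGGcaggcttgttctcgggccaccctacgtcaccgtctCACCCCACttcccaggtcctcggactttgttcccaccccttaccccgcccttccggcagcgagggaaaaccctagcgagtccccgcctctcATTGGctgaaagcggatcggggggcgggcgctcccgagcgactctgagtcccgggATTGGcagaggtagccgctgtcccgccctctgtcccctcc
Msmo1: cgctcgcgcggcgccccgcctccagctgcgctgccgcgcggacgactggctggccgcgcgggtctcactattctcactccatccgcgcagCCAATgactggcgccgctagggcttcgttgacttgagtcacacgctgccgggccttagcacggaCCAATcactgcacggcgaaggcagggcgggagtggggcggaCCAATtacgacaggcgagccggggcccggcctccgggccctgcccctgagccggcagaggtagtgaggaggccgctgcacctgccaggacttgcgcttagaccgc

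The sterol core was found in 3 of the 26 windows (11.5%), those of Acat2, Hmgcs1 and Insig1, against 7.12% of all 27025 gene windows. In Hmgcs1 it lies on the plus strand 136 bases before the start, and in Insig1 on the other strand 9 bases before it. The longer form TCACNCCAC was found in Hmgcs1 alone, against 1.44% of all windows. CCAAT was found in 20 of the 26 windows (76.9%), against 41.1% of all windows and 43.1% of the 10512 windows of genes with at least 100 reads in the sorted cells. Hmgcs1 and Nsdhl each hold 4 copies, Msmo1 holds 3 and Insig1 holds 1, while the Abca1 window holds neither motif. A match describes letters in this window and is not a measured binding site.

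In the accumbens, no cholesterol gene was called between morphine and mock pools in any of the 13 cell classes tested. UMIs were summed per pool and class before edgeR's quasi-likelihood test, so that the pool was the replicate (n = 4 per group). Beside this count, 0.0363% of the 8257 genes tested in astrocytes were called (3 genes) and 0% in each of the other 12 classes. The sums let 28 of the 32 genes be tested in astrocytes, 31 in mature oligodendrocytes, 31 in medium spiny neurons, 28 in excitatory neurons, 20 in interneurons, 15 in endothelial cells, 13 in oligodendrocyte precursors and 7 or fewer in each of the other 6 classes. At an unadjusted p under 0.05 there were 2 in astrocytes and 1 each in mature oligodendrocytes, medium spiny neurons and endothelial cells, where 3.86%, 4.16%, 2.14% and 4.57% of all genes tested had such a p. DESeq2 called 0 of the 32 genes in any class.

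In astrocytes, Mvk, the mevalonate kinase, had the smallest p. It was at 27.3, 36.5, 39.7 and 35.6 CPM in mock pools 1 to 4 and at 37.04, 36.0, 59.0 and 68.0 in morphine pools 1 to 4, a log2 difference of 0.63 (SE 0.27, adjusted p = 1). The groups overlapped, and only the older morphine pools 3 and 4 stood above every mock pool. Fdft1, the squalene synthase, was at 123, 151, 190.4 and 155 CPM in mock and 157, 164, 199.9 and 238 in morphine pools, with a log2 difference of 0.41 (SE 0.19, adjusted p = 1). Here too the groups overlapped. The 19 enzymes together summed to 2114 ± 374 CPM in mock and 2267 ± 272 in morphine pools of astrocytes (SD, n = 4 each), a difference smaller than either SD. Apoe differed by -0.09 (SE 0.15) in these cells, and Abca1 by -0.23 (SE 0.22).

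In mature oligodendrocytes of the accumbens, Cyp51 had the smallest p. It was at 223, 132, 219 and 145 CPM in mock pools and at 107, 107, 138 and 112 in morphine pools, with means of 179.7 ± 48.0 and 116 ± 15.1. Mock pool 2 lay below morphine pool 3, so the groups overlapped, although each morphine pool was below the mock pool of its number. The log2 difference was -0.57 (SE 0.21, adjusted p = 1). With the pool number as a block it was -0.53 (SE 0.12, adjusted p = 0.0328), and 1.07% of the 10263 genes of that fit were called in either direction. In this class every pair of same-numbered pools deviated together. Scap came next, at 34.3, 33.9, 49.0 and 44.4 CPM in mock and 22.3, 35.7, 32.3 and 30.6 in morphine pools, with a log2 difference of -0.36 (SE 0.22, adjusted p = 1). The summed enzymes were at 1522 ± 352 in mock and 1345 ± 239 in morphine pools.

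The 5 genes called in the sorted cells were all tested in this class as well, and none was called. The log2 differences were 0.15 (SE 0.28) for Abca1, 0.16 (SE 0.20) for Insig1, 0.07 (SE 0.26) for Nsdhl, 0.08 (SE 0.22) for Srebf1 and 0.10 (SE 0.30) for Abcg1. Each of these standard errors is 3 to 5 times that of the sorted libraries. With the pool number as a block the differences were 0.15 (SE 0.24) for Abca1, 0.18 (SE 0.12) for Insig1, 0.10 (SE 0.22) for Nsdhl, 0.10 (SE 0.17) for Srebf1 and 0.11 (SE 0.12) for Abcg1, and none was called. The 2 data sets differ in region, age, library type and counting, and the difference between them was not tested. Fdft1 in medium spiny neurons is given here after its values were seen. Its mock pools were at 70.4, 67.7, 79.4 and 79.6 CPM and its morphine pools at 108, 83.6, 106 and 108. All morphine pools were above all mock pools, with a log2 difference of 0.53 (SE 0.14, unadjusted p = 0.00271, adjusted p = 0.999 by edgeR), so it was not called among the 12638 genes.

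**Figure D2:**
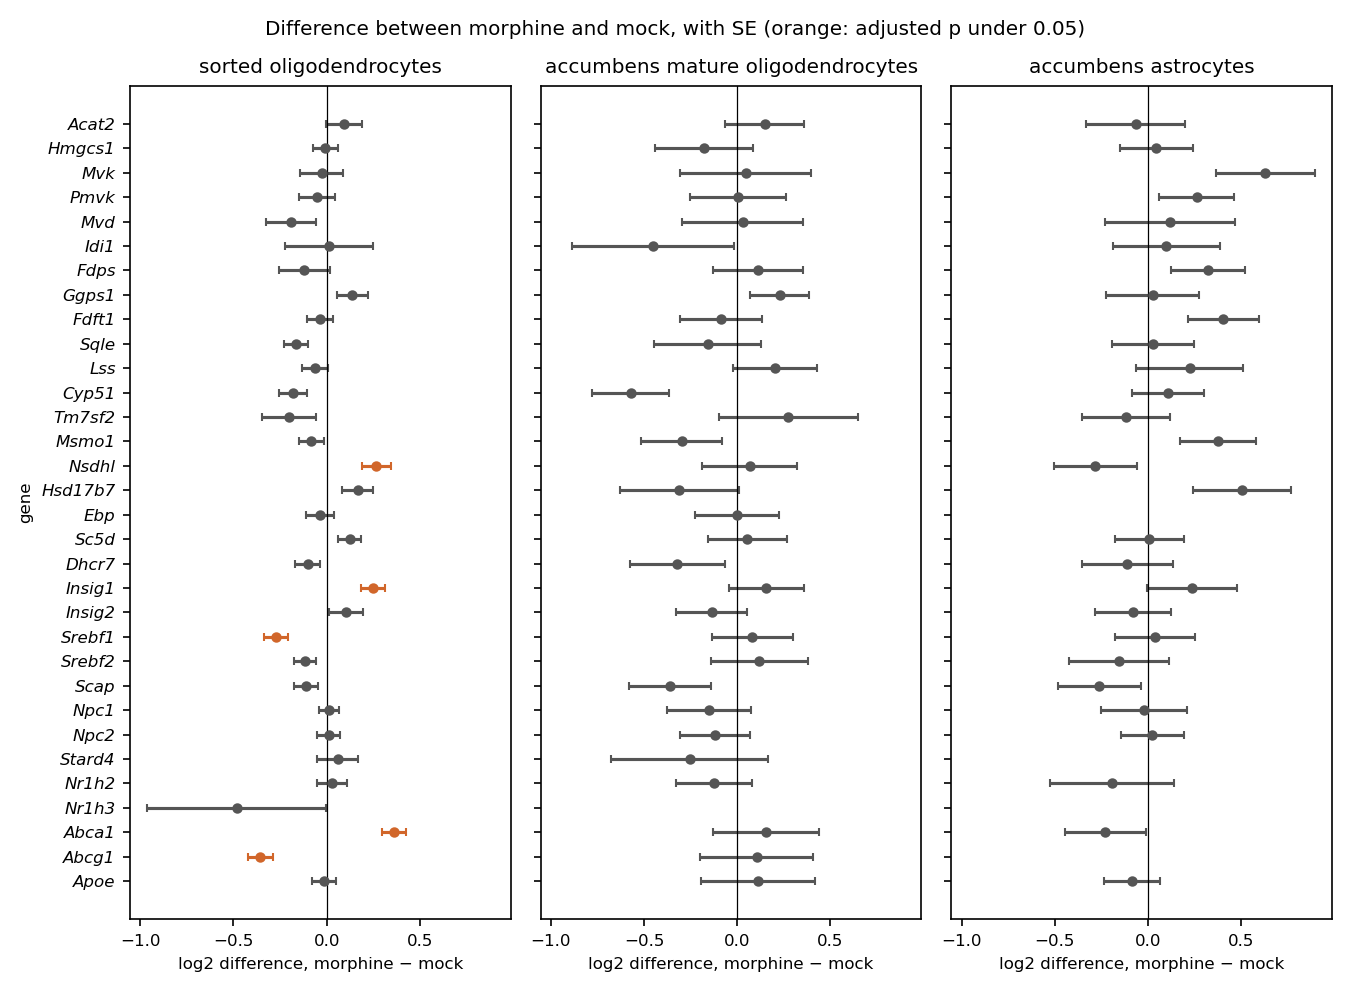
Log2 difference between morphine and mock (horizontal axis) with its SE for each of the 32 cholesterol genes, in sorted oligodendrocytes, accumbens mature oligodendrocytes and accumbens astrocytes; orange marks an adjusted p under 0.05. Only the sorted cells have orange points, and their error bars are the shortest.

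Across cell types the same genes differed far more than between treatments. Astrocytes and mature oligodendrocytes carried more transcripts of most cholesterol enzymes than medium spiny neurons. Each of the 2 glial types led for different genes. Astrocytes led for Msmo1, Apoe and Srebf1, while mature oligodendrocytes led for Ebp, Npc1 and Cyp51. Hmgcs1 also had its highest mean in mature oligodendrocytes, but the 2 glial types overlapped widely. Of the 32 genes, the highest mean over pools was in astrocytes for 15, in mature oligodendrocytes for 4, in newly formed oligodendrocytes for 4, in microglia for 3, in interneurons for 2 and in endothelial cells, excitatory neurons, mural cells and oligodendrocyte precursors for 1 each. Every pool of the top class lay above every pool of the next for Tm7sf2, Msmo1 and Apoe only, all of them highest in astrocytes. For the other 29 genes the pool ranges of the top 2 classes overlapped.

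**Figure D3:**
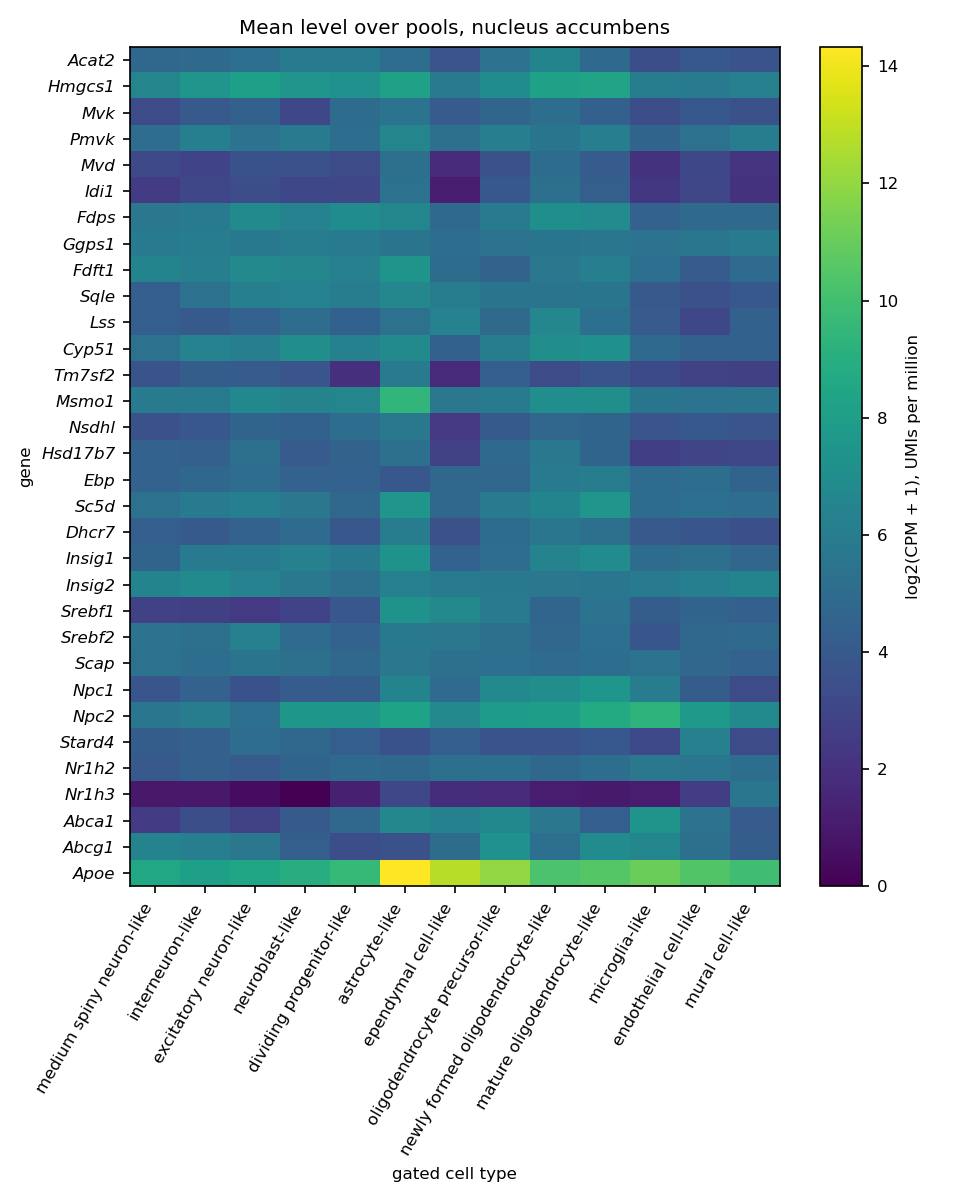
Level of each of the 32 cholesterol genes (rows, by role) in 13 accumbens cell classes (columns), as log2(mean CPM over pools + 1). Brighter colors are higher levels. The columns of astrocytes and of newly formed and mature oligodendrocytes are brightest in most enzyme rows, and Apoe is high in astrocytes above all. Rows of different genes are not to be compared, since capture differs between genes.

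The fit over all classes, with the pool as a block, tested 8926 genes in all 8 pools and 26 of the 32. The 6 left out for low sums were Mvk, Mvd, Idi1, Tm7sf2, Hsd17b7 and Nr1h3. Against medium spiny neurons, 21 of the 26 were called higher and 3 lower in astrocytes, where 32.8% and 39% of all genes were. In mature oligodendrocytes 20 were called higher and 1 lower, with 35.7% and 37.9% of all genes. The median log2 difference of the 26 was 1.60 in astrocytes, against -0.08 over all genes, and 1.48 in mature oligodendrocytes, against -0.01. Precursors had 10 higher and 5 lower (27.6% and 33% of all genes), microglia 7 and 6 (28.3% and 35.7%) and endothelial cells 9 and 10 (32.5% and 37.6%). In microglia and endothelial cells the shares of higher calls were near those of all genes. Scaling between such unlike classes is a choice: with RLE size factors the median of all genes moved by 0.22 in astrocytes, 0.26 in precursors, 0.28 in microglia and 0.15 in endothelial cells, and without TMM factors by -0.15, 0.28, -0.06 and -0.11. Higher and lower calls then read 21 and 1 in astrocytes, 14 and 2 in precursors, 8 and 4 in microglia and 10 and 7 in endothelial cells with RLE, and 19 and 4, 14 and 2, 7 and 7 and 8 and 11 without TMM.

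Of the 5 mevalonate genes tested, 4 were higher in astrocytes than in medium spiny neurons and the same number in mature oligodendrocytes. Hmgcs1, which commits acetyl units to the pathway in the cytosol, was higher by 1.85 (SE 0.16) on the log2 scale in astrocytes and by 2.12 (SE 0.15) in mature oligodendrocytes. Its mean level was 330.1 ± 103 CPM in mature oligodendrocytes, 297 ± 62.7 in astrocytes and 90.6 ± 10.8 in medium spiny neurons (SD, n = 8 pools). The 2 glial types overlapped widely (232 to 479.9 and 222 to 408), and the neurons, at 78.5 to 111, lay below both in every pool. Pmvk, the phosphomevalonate kinase, was higher by 1.56 (SE 0.14) in astrocytes and 1.27 (SE 0.13) in mature oligodendrocytes, and Fdps, the farnesyl diphosphate synthase, by 1.00 (SE 0.14) and 1.46 (SE 0.13). Ggps1, which diverts farnesyl units toward protein prenylation and away from sterols, differed by -0.16 (SE 0.14) and 0.07 (SE 0.13) and was called in neither.

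Among the enzymes tested, those with the widest gaps between astrocytes and medium spiny neurons were in the sterol steps. Msmo1, the C4-methylsterol oxidase, ranged from 362 to 838 CPM in astrocytes (median 661) and from 39.7 to 70.01 in medium spiny neurons (median 59.4). Every astrocyte pool was over 5 times the highest neuronal pool, and the log2 difference was 3.69 (SE 0.15, adjusted p = 3.09e-47). Mature oligodendrocytes lay between, at 89.2 to 203 (median 144), and astrocytes exceeded them by 2.14 (SE 0.15). Sqle was higher than in medium spiny neurons by 2.52 (SE 0.15) in astrocytes and 1.55 (SE 0.15) in mature oligodendrocytes, Nsdhl by 2.42 (SE 0.19) and 1.40 (SE 0.19), and Sc5d, the sterol desaturase, by 2.32 (SE 0.13) and 2.43 (SE 0.13). For Sqle, neuroblasts (mean 79.3 CPM) and excitatory neurons (72.5 CPM) came next after astrocytes. Against medium spiny neurons, both glial types thus stood higher for these steps. Ebp, the isomerase that shifts the double bond of the sterol ring, broke that pattern. It ranged from 5.29 to 25.6 CPM in astrocytes (median 11.9) and from 47.9 to 89.3 in mature oligodendrocytes (median 65.9). No astrocyte pool reached the lowest oligodendrocyte pool, the log2 difference was -2.33 (SE 0.20, adjusted p = 2.14e-20), and no class had a lower mean than astrocytes. Only 80 UMIs of Ebp were counted in all astrocytes. Fdft1 behaved otherwise again: it was higher in astrocytes than in medium spiny neurons by 1.11 (SE 0.13), while mature oligodendrocytes differed from the neurons by -0.11 (SE 0.14) and were not called. In endothelial cells it ranged from 7.37 to 30.5 (median 14.3) against 67.7 to 108 in medium spiny neurons (median 81.6), with no overlap and a log2 difference of -2.14 (SE 0.24, adjusted p = 8.85e-15), and in precursors the difference was -2.17 (SE 0.25).

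Summed over the 19 enzymes of synthesis, astrocytes held 2191 ± 313 CPM (1797 to 2649.7, SD over 8 pools), mature oligodendrocytes 1433 ± 294 (1128 to 1913) and medium spiny neurons 627 ± 41.8 (574 to 679). The neurons lay below both glial types in every pool. Newly formed oligodendrocytes were at 1455 ± 748, with a range of 709 to 2943 that spans those of both. Other neuronal classes were higher on average than medium spiny neurons, with excitatory neurons at 1140 ± 199 (848 to 1368, 7 pools) and interneurons at 850 ± 124. The excitatory neurons overlapped the mature oligodendrocytes. Precursors were at 778 ± 95.3, endothelial cells at 437 ± 48.2 and microglia at 431 ± 107, the last of the 13 classes. By branch, astrocytes and mature oligodendrocytes were alike in the mevalonate steps, at 678 ± 103 and 653 ± 153, and apart in the sterol steps, at 1513 ± 236 and 780.5 ± 153. The lowest astrocyte pool (1137) exceeded the highest oligodendrocyte pool (1064) in the sterol steps. Msmo1 carried most of that gap: summed without it, a choice made after the values were seen, the other 10 sterol genes were at 835 ± 96.4 and 639 ± 122, and the pools overlapped (735 to 1018 and 538 to 861). These sums add genes of unequal capture and describe the classes without a test.

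**Figure D4:**
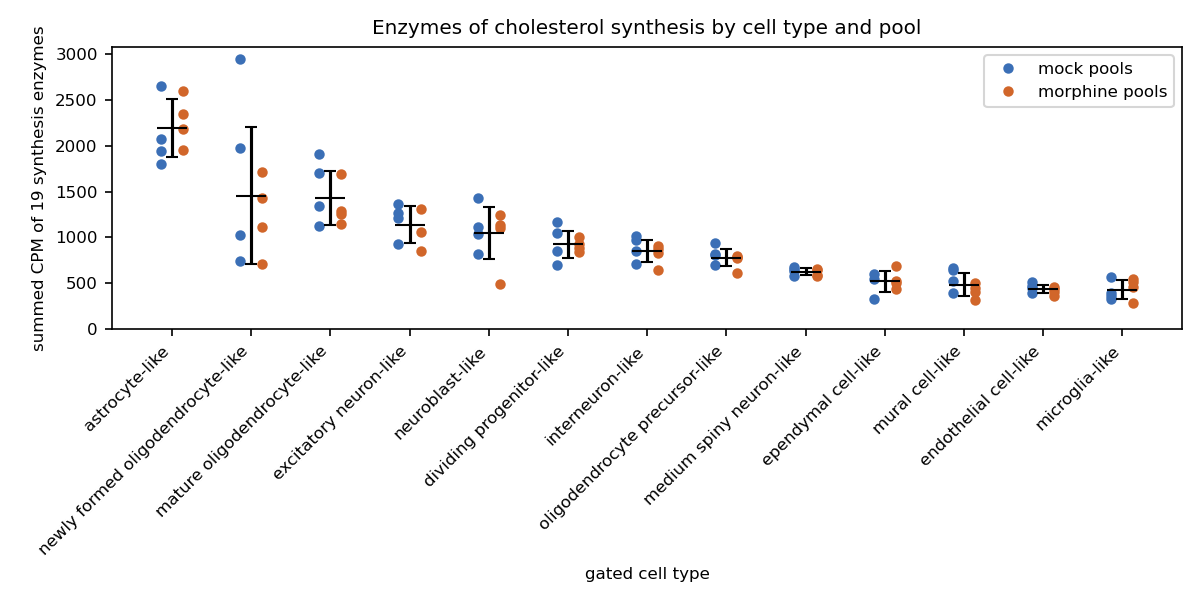
Summed level of the 19 enzymes of synthesis in CPM (vertical axis) for each of 13 accumbens cell classes; points are pools, and bars give the mean and SD over pools. Astrocytes are highest at 2191, newly formed and mature oligodendrocytes follow at 1455 and 1433, and medium spiny neurons sit at 627 with the narrowest spread.

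Among the sensors, Srebf1 separated glia from neurons most. It ranged from 108 to 209.6 CPM in astrocytes (median 145), from 31.7 to 60.5 in mature oligodendrocytes (median 41.98), from 31.7 to 103 in precursors (median 58.9) and from 3.61 to 9.42 in medium spiny neurons (median 5.69). The neuronal pools lay below all glial pools. The log2 differences from the neurons were 4.81 (SE 0.15, adjusted p = 6.61e-58) in astrocytes, 3.12 (SE 0.16, adjusted p = 6.44e-38) in mature oligodendrocytes and 3.06 (SE 0.23, adjusted p = 8.85e-24) in precursors. Its paralog Srebf2 did not follow. Excitatory neurons had its highest mean, 74.4 ± 22.5, and the differences from medium spiny neurons were 0.48 (SE 0.15) in astrocytes and 0.02 (SE 0.14) in mature oligodendrocytes. Insig1 was higher in astrocytes by 2.84 (SE 0.13) and in mature oligodendrocytes by 2.58 (SE 0.12), whereas Insig2 differed by -0.12 (SE 0.13) and -0.60 (SE 0.13). In each pair of paralogs, 1 gene thus set both glial types well above the neurons and the other did not.

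For transport, mature oligodendrocytes and microglia stood out. Npc1, the lysosomal membrane exporter, ranged from 97.4 to 233 CPM in mature oligodendrocytes (median 184) and from 11.3 to 16.8 in medium spiny neurons (median 12.9), a log2 difference of 4.02 (SE 0.13, adjusted p = 7.11e-58). The groups were far apart in every pool. Npc2, its soluble lysosomal partner, was at 343 to 595 in mature oligodendrocytes (median 425), 240.2 to 761 in microglia (median 663), 167 to 249 in endothelial cells (median 209.8) and 42.9 to 55.5 in medium spiny neurons (median 49.5). The differences from the neurons were 3.43 (SE 0.12, adjusted p = 5.35e-53) in mature oligodendrocytes, 3.79 (SE 0.13, adjusted p = 1.17e-53) in microglia and 2.18 (SE 0.13) in endothelial cells. Stard4, a cytosolic sterol carrier, had its highest mean in endothelial cells, 74.0 ± 15.9, ahead of excitatory neurons at 33.8 ± 12.8. The endothelial difference from medium spiny neurons was 2.13 (SE 0.19), and the difference in astrocytes was -0.50 (SE 0.23).

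For export, Apoe set astrocytes apart. It ranged from 16998 to 24605 CPM in astrocytes (median 20449) and from 136 to 926 in medium spiny neurons (median 341), a log2 difference of 6.06 (SE 0.27, adjusted p = 2.09e-43). The neuronal mean was 1.91% of the astrocyte mean, and 5 other astrocyte genes stood at 1.09% to 2.65% in the same neurons. Whether the neuronal Apoe was free RNA in droplets or expression by the neurons was not tested. Precursors were at 3422 to 4961 (median 4164), 20.3% of the astrocyte level, where the same 5 genes ranged from 7.11% to 41.95%. In microglia Apoe was at 997 to 3262 (median 2172), 10.5% against 3.32% to 7.85%, and in mature oligodendrocytes at 555 to 2231 (median 1608), 7.42% against 3.14% to 8.55%. Only the microglial share lay above that range among these 3 classes. Against medium spiny neurons Apoe was higher by 3.34 (SE 0.24) in precursors and 2.60 (SE 0.24) in microglia, and free RNA was not taken off in any class. For comparison, the neuronal level of Hmgcs1 was 27.5% of that of mature oligodendrocytes, where 5 other oligodendrocyte genes were at 0.75% to 2.69%.

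Abca1 was highest in microglia, at 84.1 to 273 CPM (median 169), followed by precursors at 52.8 to 153 (median 91.0) and astrocytes at 68.4 to 139.7 (median 93.8). These 3 classes overlapped one another. Endothelial cells were at 18.9 to 72.3 (median 44.3), mature oligodendrocytes at 11.5 to 27.5 (median 18.7) and medium spiny neurons at 2.86 to 8.23 (median 4.78). The differences from the neurons were 5.08 (SE 0.20, adjusted p = 3.91e-47) in microglia, 4.45 (SE 0.17, adjusted p = 1.92e-50) in astrocytes, 4.04 (SE 0.22, adjusted p = 1.97e-35) in precursors and 3.17 (SE 0.24) in endothelial cells. Abcg1 had another order, with precursors at 79.2 to 212 (median 158), mature oligodendrocytes at 60.7 to 179 (median 124) and medium spiny neurons at 53.6 to 106 (median 84.6), which overlapped, and astrocytes at 5.70 to 19.9 (median 10.4). Every astrocyte pool was below every pool of those 3 classes. Astrocytes had a log2 level of Abcg1 that was 3.56 lower than in mature oligodendrocytes (SE 0.19, adjusted p = 9.18e-37 by edgeR). For Abca1 they were higher by 2.31 (SE 0.17) and for Apoe by 3.66 (SE 0.24). The part of free RNA in the Apoe of the oligodendrocytes was not tested. The 2 exporters thus had opposite orders in the 2 glial types. Nr1h2 was higher than in medium spiny neurons by 0.94 (SE 0.17) in astrocytes and 1.49 (SE 0.14) in mature oligodendrocytes. Nr1h3 had its highest mean level in mural cells, at 48.2 ± 37.005 from 44 UMIs, with astrocytes next at 7.34 ± 5.43 from 36 UMIs.

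**Figure D5:**
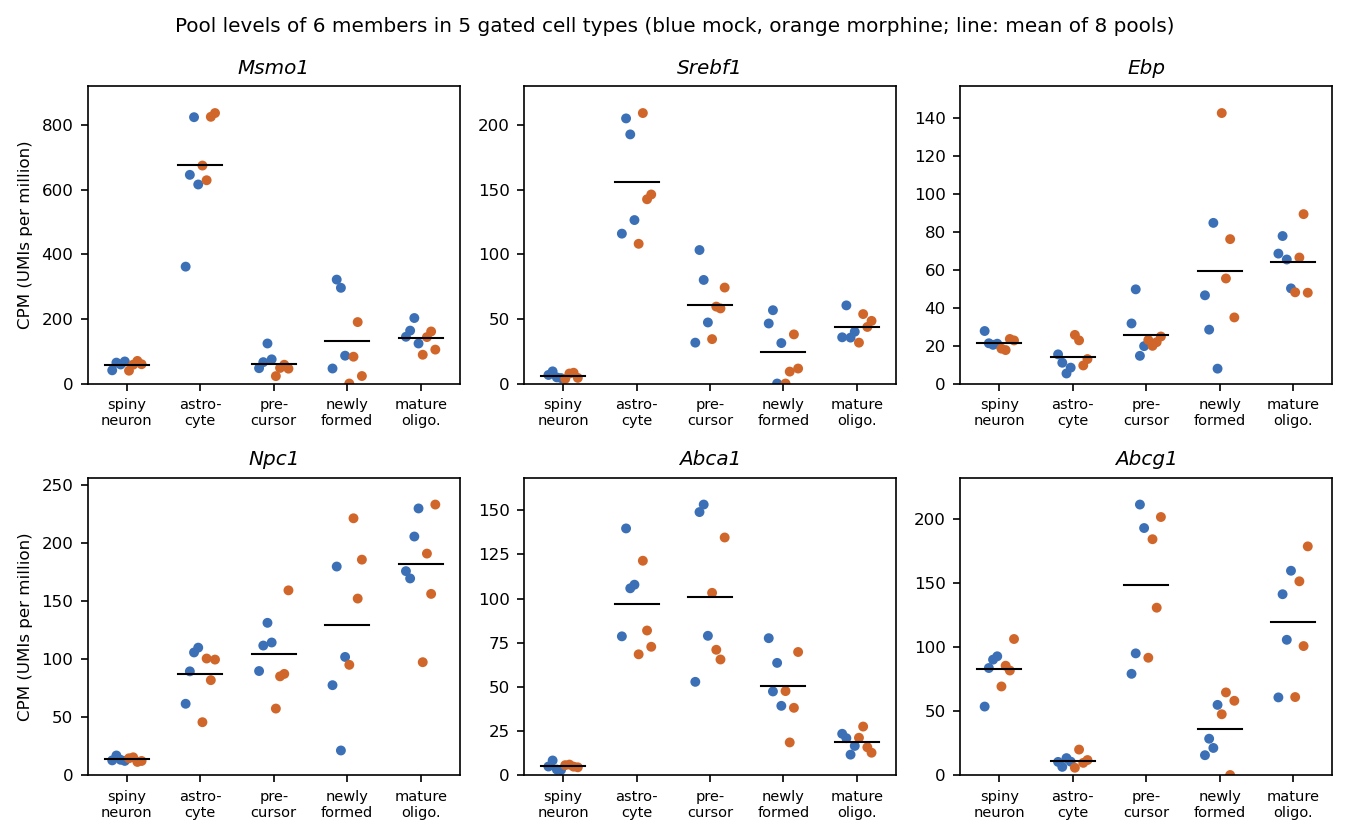
Level in CPM (vertical axis) of Msmo1, Srebf1, Ebp, Npc1, Abca1 and Abcg1 in medium spiny neurons, astrocytes, oligodendrocyte precursors, newly formed and mature oligodendrocytes; points are pools (blue mock, orange morphine) and lines the mean of 8 pools. Blue and orange points mix within each class while the classes differ, and Ebp and Abcg1 are low in the astrocytes in which Msmo1 and Srebf1 are high.

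Compared directly, 11 of the 26 genes were called higher in astrocytes and 7 in mature oligodendrocytes, where 25.9% and 29.1% of all genes were. The astrocyte side held Fdft1, Sqle, Msmo1, Nsdhl and Dhcr7 of the sterol steps, all regulators but Insig1, and Abca1 and Apoe. The oligodendrocyte side held Fdps, Cyp51, Ebp, Npc1, Npc2, Nr1h2 and Abcg1. Without mock pool 1, the genes higher in astrocytes numbered 17. With RLE size factors the 2 sides had 13 and 5, and without TMM factors 13 and 7.

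Along the oligodendrocyte lineage, the step from precursors to newly formed cells had 7 of the 26 genes called higher, where 8.4% of all genes were, and 4 lower, where 14.2% were. Of the 14 enzymes tested 6 were higher and 0 lower, and the lower calls were 3 export genes and the sensor Srebf1; in mock pools alone 2 genes were lower. The genes that rose were Hmgcs1 by 1.13 (SE 0.28), Fdps by 1.04 (SE 0.28), Fdft1 by 1.14 (SE 0.44), Lss by 1.46 (SE 0.37), Cyp51 by 0.92 (SE 0.28), Msmo1 by 1.10 (SE 0.32) and Insig1 by 1.02 (SE 0.33). Lss, which closes squalene epoxide into lanosterol, ranged from 7.84 to 190.2 CPM in newly formed cells (median 84.5) and from 16.6 to 58.2 in precursors (median 22.4). The ranges overlapped, and newly formed cells were higher in 7 of 8 pools (adjusted p = 0.00108). Those that fell were Abcg1 by 1.89 (SE 0.29, adjusted p = 7.51e-08), Apoe by 1.86 (SE 0.25, adjusted p = 3.51e-10), Srebf1 by 1.23 (SE 0.40) and Abca1 by 1.06 (SE 0.33). Abcg1 was at 0 to 64.6 in newly formed cells (median 38.0), from 25 UMIs in all, below the precursors in every pool. Apoe was at 699 to 1949 in newly formed cells (median 1158), also below the precursors throughout, and free RNA of Apoe was not separated from its own in either class. There were 198 newly formed cells and 21036 to 127587 UMIs per pool, which limits these values. Their own markers made up a median of 0.858% of a cell's UMIs and those of mature oligodendrocytes 3.64%, and no cluster could be given this name, so this class is not cleanly apart from mature cells. Without mock pool 2, 4 genes were called higher.

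From newly formed to mature oligodendrocytes 14 genes were called higher and 0 lower, where 21.7% and 9.84% of all genes were, but this count rests on the scaling. RLE size factors moved the median of all genes by -0.19 and gave 12 higher and 2 lower, and leaving out the TMM factors, an alternative chosen after the data were seen, moved it by -0.56 and gave 4 and 3. Abcg1, Sc5d and Npc2 had the largest differences. Abcg1 was higher in mature cells by 2.12 (SE 0.27), and by 1.57 without TMM. Sc5d was at 142 to 240.4 in mature cells (median 168) and 15.5 to 190.3 in newly formed cells (median 89.0), a difference of 1.70 (SE 0.24), and 1.12 without TMM. Npc2 was at 197 to 305 in newly formed cells (median 251), below every mature pool, a difference of 1.40 (SE 0.16), and 0.82 without TMM. Each of the 3 was higher in mature cells in 8 of 8 pools. The other 24 pathway genes, 17 of them tested, had 9 higher and 6 lower in astrocytes and 7 of each in mature oligodendrocytes against medium spiny neurons. Of all genes, 32.8% were higher and 39% lower in astrocytes, and 35.7% and 37.9% in mature oligodendrocytes.

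Between the older pools (78 to 82 days) and the younger ones (37 to 45 days), 4 of each, no cholesterol gene was called in astrocytes, mature or newly formed oligodendrocytes, precursors or medium spiny neurons. The shares of all genes called were 0.333%, 0%, 0.0524%, 0.423% and 0%. Tested were 29, 31, 7, 16 and 31 of the 32 genes, and 7, 6, 0, 1 and 6 of them had an unadjusted p under 0.05, where 12.4%, 13.6%, 9.22%, 12.3% and 13.2% of all genes tested had. Lss in astrocytes was at 29.0, 33.8, 28.5 and 28.5 CPM in the younger pools (mock 1, mock 2, morphine 1, morphine 2) and at 47.6, 47.1, 60.9 and 52.7 in the older ones. The age sets did not overlap, with a log2 difference of 0.80 (SE 0.23, adjusted p = 0.166). In mature oligodendrocytes Hsd17b7, a ketosteroid reductase of the sterol steps, was at 21.8, 16.2, 16.4 and 15.9 CPM in younger pools, against 39.4, 30.8, 23.2 and 27.9 CPM in older ones. Here too the sets did not overlap, with a difference of 0.92 (SE 0.23, adjusted p = 0.126). In precursors Abcg1 went from 113 ± 48.4 to 184 ± 36.4 (0.63, SE 0.26, adjusted p = 0.303), and in newly formed cells Hmgcs1 from 321 ± 149 to 265 ± 299 (-0.46, SE 0.46, adjusted p = 0.771), both within the spread. In medium spiny neurons Apoe, where the part of free RNA was not tested, went from 579 ± 250.1 to 206 ± 80.8 (-1.43, SE 0.33, adjusted p = 0.213 by edgeR). It was called without morphine pool 3 (-1.81, adjusted p = 0.0362). The summed enzymes of astrocytes were at 1968 ± 159 CPM over younger and 2414 ± 267 CPM over older pools.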

How the data were processed

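The deposited Drop-seq tables hold raw counts of UMIs per gene and cell barcode, made with DigitalExpression of the Drop-seq tools per the file headers, and the table deposited for the sorted cells holds each gene's raw read counts. Build mm10 and the tools DESeq, DESeq2, HTSeq, STAR 2.4.2a and Trimmomatic 0.36 are named per the submitters' processing notes, without a role for each kind of data. The authors' deposited result table for the sorted cells gives a mean normalized signal, log2 fold changes with standard errors, a test score, and raw and adjusted p-values, per the file headers; only its log2 fold changes and adjusted p-values were read. Whether reads were counted by strand is not given in the sources used here.

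Reads in no gene (69.5% to 74.3% per sorted library) were left out. The replicate 1 pools use another annotation, so 6487 symbols found only there (1.56% of their UMIs) were left out. Barcodes had to show 300 genes or more, with mitochondrial UMIs at 20% or less. A cell was assigned to a class when at least 3 of the class's markers were detected and its marker score was at least 1.5 times that of the next class, and no doublet caller was run; 9.34% of the assigned cells had a ratio under 2. Clusters (scanpy 1.11.5, Python 3.11.15) and the marker classes gave the same name for 93.5% of the cells that both named. CPM values are counts per 1000000 of a library or of a class and pool, computed from the deposited counts. Tests used edgeR 4.0.16 in R 4.3.3 (quasi-likelihood, TMM, filterByExpr, Benjamini-Hochberg over all genes tested), in classes where 3 or more pools per group had 10 or more cells. Contrasts between classes had the pool as a block, and those between ages had the treatment as a covariate. The edgeR test between groups was tried on simulated data modelled on the sorted cells, mature oligodendrocytes and astrocytes. Other steps were not tried in this way. DESeq2 1.42.0, RLE size factors, no filter, clusters, a stricter barcode filter of 500 genes, age as a covariate, mock pools alone, left-out replicates and the replicate block were alternatives.

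Same-numbered accumbens pools share their ages, per the labels. Deviations of same-numbered pools from their group means correlated by 0.167 to 0.448 in mature oligodendrocytes, 0.0884 to 0.411 in astrocytes and -0.0635 to 0.681 in medium spiny neurons. The block is used for the first of these, where every such pair was over 0.1. It stands beside a call that it changes and beside the genes called in the sorted cells. In astrocytes, pools of unlike number correlated by at most 0.0745. There the block called 17 genes, 0 of them cholesterol genes, and 5 cholesterol genes had an unadjusted edgeR p under 0.05. The share of all genes with such a p was not counted for that fit. Sorted libraries are numbered as their columns stand within a group in the deposited table, and the number is only a name.

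The genes and lists were chosen with earlier results of these data known. All 32 are accounted for. Named with full values are those called in the sorted cells, those called in the accumbens or otherwise the 2 of smallest p in astrocytes and mature oligodendrocytes, the 3 of largest absolute fold per contrast between classes, and for age the 1 of smallest p per class. Further genes were named to describe the roles after their values were seen. Gene positions and lengths are from GENCODE vM21 (mm10). Intervals and errors cover replicate and counting error only, and where labels do not name separate animals the p-values measure only the spread between libraries.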

Additional observations from a re-analysis of the deposited data

Results flagged for a closer look

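Of 52 groups of 4 to 8 pools checked, 5 had a highest or lowest pool far from the others, where chance alone flags about 1 in 20. In precursors of the younger pools, Abcg1 was at 184 CPM in morphine pool 2 and at 79.2 to 95.2 in the other 3. In mature oligodendrocytes of the morphine pools, Cyp51 was at 138 in pool 3 and at 107 to 112 in the others. In mature oligodendrocytes of the younger pools, Hsd17b7 was at 21.8 in mock pool 1 and at 15.9 to 16.4 in the others. In astrocytes of the younger pools, Lss was at 33.8 in mock pool 2 and at 28.5 to 29.0 in the others. In microglia of all 8 pools, Npc2 was at 240.2 in morphine pool 1, which held 28 microglia, and at 596 to 761 in the others.

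In 2 of 96 pairs of gene and class, the younger morphine pools all lay to one side of the younger mock pools and the older ones to the other side. The difference was not tested. With so few pools per age set, such a split can arise by chance, and the share over all genes was not counted. The count is therefore no result about these genes. Lss in astrocytes was at 31.4 in mock and 28.5 in morphine among the younger pools and at 47.4 and 56.8 among the older ones (mean of the morphine pools 42.7). Ebp in medium spiny neurons was at 24.5 and 18.0 among the younger and at 20.7 and 23.1 among the older pools (mean of the morphine pools 20.6).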

How the results depend on the processing

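Among the sorted cells, leaving out 1 library gave 1 to 3 cholesterol genes higher and 1 to 5 lower; without mock library 2 there were 5 lower, and without morphine library 2 there were 1 higher and 1 lower. Abca7 was not called with DESeq2 (adjusted p = 0.186) or without a filter (0.0724), and a replicate block was not run for these libraries because no label ties a mock to a morphine column. Over all 13 accumbens classes, 3 genes of any kind were called, against 29 with DESeq2, 130 without a filter on low counts, 0 with classes from clusters, 16 with age as a covariate, 164 with the replicate block and 0 to 13 when 1 pool was left out (0 without mock pool 3, 13 without mock pool 4, 9 without morphine pool 2); the calls of cholesterol genes were 0 in these, except that the replicate block called 1, Cyp51 in mature oligodendrocytes. Between classes, the genes lower than in medium spiny neurons numbered 1 in astrocytes and 2 in precursors with RLE size factors, 11 in microglia without a filter, 1 in astrocytes and 6 in endothelial cells with clusters, 3 in precursors and 3 in endothelial cells in mock pools alone, and 3 in mature oligodendrocytes and 2 in precursors without TMM factors; leaving out 1 pool gave 1 to 3 in astrocytes (1 without mock pool 3 or 4 or morphine pool 1, 3 or 4), 2 to 6 in precursors (3 or fewer without mock pool 1, 3 or 4 or morphine pool 1 or 4) and 4 to 12 in endothelial cells (4 without mock pool 3, 5 without morphine pool 1). From precursors to newly formed cells 2 were lower in mock pools alone, and 4 to 7 higher with 1 pool left out. From newly formed to mature cells 2 were lower with RLE size factors, 9 higher in mock pools alone, 4 higher and 3 lower without TMM factors, and 0 to 1 lower with 1 pool left out (1 without mock pool 4 or morphine pool 2), while 9 to 17 were higher in astrocytes than in mature oligodendrocytes. For age, no filter called 1 gene in mature oligodendrocytes (Hsd17b7) and 1 in medium spiny neurons (Apoe), and leaving out 1 pool called 0 to 1 in the neurons. The age difference of Hmgcs1 in newly formed cells ran from -1.78 (without mock pool 3) to 0.088 with 1 pool left out, and had the opposite sign at 0.088 without mock pool 4 and 0.0106 without morphine pool 4. The cause was not tested for any of these, though a fit with fewer pools has less power by construction. The cluster nearest to newly formed cells had 9 of their markers raised. Its top genes held fewer of these markers than of mature oligodendrocyte markers, so it stayed unnamed and clusters gave no value there. Depth limits the small classes most: at most 7 of the 32 genes could be tested for morphine in microglia, newly formed, dividing, ependymal and mural cells and neuroblasts.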
